A study of Mus musculus with 6 samples.

Results

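Small nucleolar RNA host genes are transcribed by RNA polymerase II and carry small nucleolar RNAs (snoRNAs) in their introns. A set of 10 such mouse genes is described here, namely Gas5, Snhg1, Snhg3, Snhg5, Snhg6, Snhg8, Snhg11, Snhg12, Snhg15 and Snhg20. They were found by matching the Ensembl gene IDs of the count table to symbols, and they make up 10 of its 56980 rows. The data are gene counts of total RNA from whole pancreatic islets, small organs of insulin-making beta cells and other endocrine cells. Controls were 3 libraries from 14-week-old mice of genotype SSBP3F/F, which carry floxed alleles of the co-regulator gene Ssbp3. Knockouts were 3 libraries from 14-week-old littermates of genotype SSBP3F/F; MIP-CreER, which have the same floxed alleles plus a tamoxifen-inducible Cre recombinase driven by the mouse insulin promoter. MIP-CreER mice in common use also carry a human growth hormone minigene, and the labels do not say whether that holds here. Both groups share the floxed alleles, and a group with MIP-CreER alone is not analysed here, so effects of the transgene and of the deletion cannot be told apart. The labels state neither a tamoxifen schedule nor whether a library holds 1 animal or a pool, so p-values cover only library-to-library spread, which may be technical in part. The columns of the count table name the group of a library but not its animal, and their numbering gives the names control 1 to 3 and knockout 1 to 3.

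The exons of a host gene are spliced together and exported or degraded, while the snoRNAs are trimmed out of the excised introns. Box C/D snoRNAs guide 2′-O-methylation and box H/ACA snoRNAs guide pseudouridylation of ribosomal RNA, and both kinds work in the nucleolus as RNA-protein particles. Several of these spliced RNAs hold only short reading frames and are removed by nonsense-mediated decay, and several begin with a pyrimidine tract at the 5′ end, as the messenger RNAs of ribosomal proteins do. The level of the spliced RNA therefore reflects transcription and decay together, and it is not a measure of the snoRNA.

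The 10 genes carry 31 small RNAs in the GENCODE M21 annotation of the GRCm38 build, each inside the span of its host and on the same strand. Gas5 carries 9 of them, Snhg1 carries 8, Snhg12 carries 4, Snhg3, Snhg5 and Snhg11 carry 2 each, and the other 4 genes carry 1 each. A script found the box C letters TGATGA near the 5′ end and the box D letters CTGA near the 3′ end in 17 of the 31, and the letters ACA exactly 3 bases from the 3′ end in 7. The following 5 are shown because of their hosts. These hosts are Gas5, the most abundant gene of the set, and the 3 genes called lower in knockouts by the test described below. Boxes are in capitals, sequences run 5′ to 3′ on the transcribed strand, and positions are on GRCm38, whereas the counts were made on GRCm39.
Snord47, in Gas5, chr1:161038082-161038158, plus strand: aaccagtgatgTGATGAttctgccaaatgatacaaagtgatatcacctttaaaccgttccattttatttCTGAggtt
Gm22744, in Snhg1, chr19:8725092-8725156, plus strand: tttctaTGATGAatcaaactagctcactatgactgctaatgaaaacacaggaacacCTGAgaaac
Gm23246, in Snhg1, chr19:8725594-8725660, plus strand: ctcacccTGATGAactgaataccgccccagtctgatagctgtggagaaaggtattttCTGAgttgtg
Snora9, in Snhg15, chr11:6528033-6528165, minus strand: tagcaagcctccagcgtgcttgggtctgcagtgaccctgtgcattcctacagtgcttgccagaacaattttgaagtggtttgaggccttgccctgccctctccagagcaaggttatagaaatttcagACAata
Gm26083, in Snhg20, chr11:117077243-117077435, plus strand: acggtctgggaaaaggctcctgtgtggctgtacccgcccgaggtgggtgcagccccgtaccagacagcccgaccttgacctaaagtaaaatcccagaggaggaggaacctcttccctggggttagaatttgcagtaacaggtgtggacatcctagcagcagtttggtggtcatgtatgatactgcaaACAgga

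The starts of the host genes differ in whether they hold a pyrimidine tract under the search rule used here. The search took a C followed by at least 4 bases that are each C or T, beginning within 10 bases of a start listed by RefSeq on GRCm38.p6, on the transcribed strand. Of 10 listed starts of the set, 2 of them of Gas5, 5 held such a tract (50%), against 30.7% of 32851 listed starts of all genes. Each stretch below has 25 bases before and 25 bases from the start onwards, with the tract in capitals.
Gas5, the later of its starts, chr1:161035141-161035190, plus strand: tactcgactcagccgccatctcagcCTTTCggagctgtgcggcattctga
Snhg8, chr3:123508312-123508361, minus strand: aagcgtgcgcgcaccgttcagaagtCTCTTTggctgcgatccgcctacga
Snhg12, chr4:132308653-132308702, plus strand: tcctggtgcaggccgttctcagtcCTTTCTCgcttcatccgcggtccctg
Snhg5, chr9:88522873-88522922, minus strand: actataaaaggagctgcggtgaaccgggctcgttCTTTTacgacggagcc
Snhg1, chr19:8723462-8723511, plus strand: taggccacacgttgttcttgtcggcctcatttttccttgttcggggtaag
Snhg11, chr2:158375688-158375737, plus strand: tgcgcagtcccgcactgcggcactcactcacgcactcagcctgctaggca
Snhg15, chr11:6528736-6528785, minus strand: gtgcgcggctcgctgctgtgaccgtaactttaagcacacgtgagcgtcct
Snhg20, chr11:117076758-117076807, plus strand: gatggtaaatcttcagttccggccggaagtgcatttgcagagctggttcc

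Sequencing depth was uneven, with 14907641 to 225428920 counts per library and control 1 (17587055) and knockout 1 (14907641) as the shallow libraries. All 9 lists of islet and neighbouring cell-type markers were detected in every library. The summed beta-cell markers lay between 188212 and 243194 CPM (counts relative to a TMM-scaled library total) in control and between 141286 and 158897 CPM in knockout libraries, so the tissue label held, and the groups did not overlap. Ssbp3 itself stood at 65.8, 81.3 and 74.2 CPM in the controls against 52.2, 58.1 and 57.1 CPM in the knockouts, with log2 fold change -0.40 and no call (adjusted p = 0.0581). Which exons were deleted is not stated in the labels, and Ssbp3 counts come from every islet cell type.

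Of the 10 host genes, 9 passed the filter on low counts and were tested with edgeR's quasi-likelihood test over 18558 genes, where an adjusted p (Benjamini-Hochberg) under 0.05 is a call. Snhg1, Snhg15 and Snhg20 were called lower in knockout islets and none was called higher, also not by DESeq2 or limma-voom. An unadjusted p under 0.05 was found for 6 of the 9, all lower, and for 21.6% of all genes tested in either direction. Across all genes tested, 3.35% were called lower and 3.72% higher. All 9 fold changes were negative, against 50.2% of all genes tested. The median log2 fold change of the 9 was -0.76, against -0.0016 over all genes. Knockout libraries lay wholly below control libraries for 5 of the 9 genes, namely Snhg1, Snhg6, Snhg11, Snhg15 and Snhg20, against 14.1% of all genes tested. In whole islets, fewer cells that express a gene and less of its RNA per cell cannot be told apart.

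**Figure D1:**
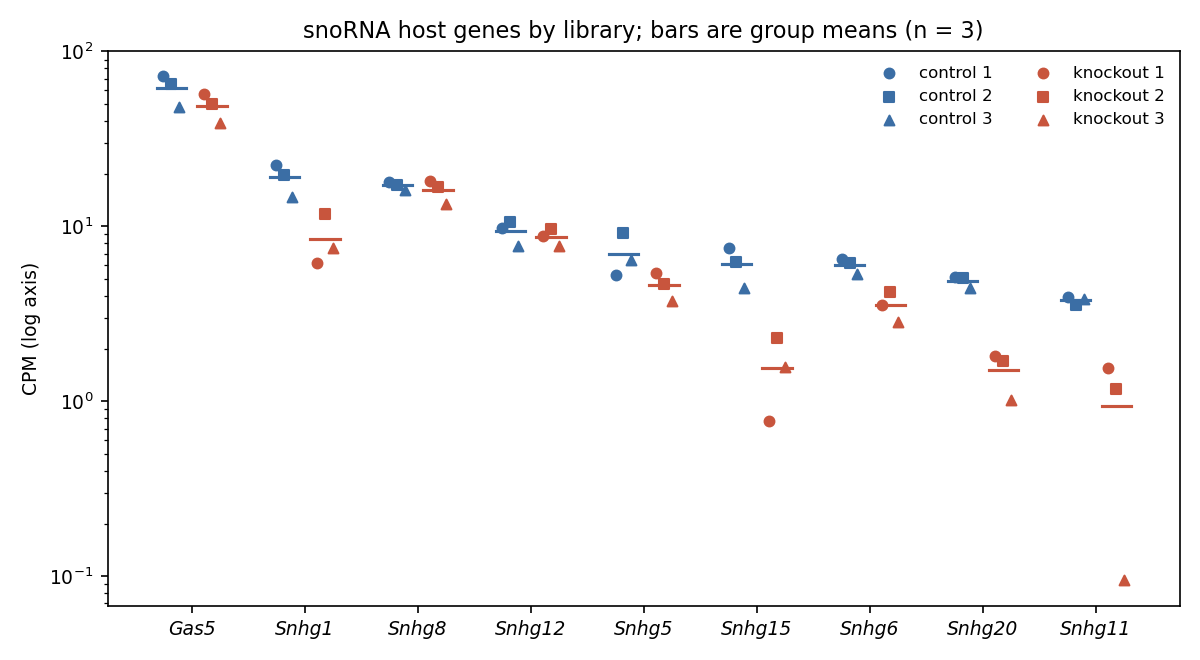
Level of each tested host gene in CPM (log axis) in the 3 control and 3 knockout libraries, with horizontal bars at the group means. Snhg1, Snhg15, Snhg6, Snhg20 and Snhg11 show no overlap between the groups, while Gas5, Snhg8, Snhg12 and Snhg5 do; Snhg3 was at 0 in every library and is not drawn.

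Snhg20 encodes a noncoding RNA and hosts a single small RNA, for which only the letters ACA near the 3′ end were found. Its level was 5.14 CPM in control 1, 5.05 in control 2 and 4.43 in control 3, and 1.81, 1.71 and 1.02 CPM in the knockouts in the same order. The highest knockout library lay below the lowest control library by more than the whole range of either group. The means were 4.87 ± 0.385 and 1.51 ± 0.428 CPM (SD, n = 3 each), a 3.28-fold fall (log2 fold change -1.71, SE 0.312, adjusted p = 0.00654). These levels rest on 91 to 983 counts per control library and 28 to 137 per knockout library. Snhg20 had the smallest p of the set.

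Snhg15 is the host of Snora9 and gives a short-lived spliced RNA. Its level was 7.56, 6.26 and 4.46 CPM in the controls and 0.776, 2.31 and 1.57 CPM in the knockouts. Control 1 was the highest library and knockout 1 the lowest, and the groups did not overlap. The means of 6.09 ± 1.56 and 1.55 ± 0.767 CPM give a 3.71-fold fall (log2 fold change -1.89, SE 0.361, adjusted p = 0.00855). The knockout value in the shallow library rests on 12 counts. Without both shallow libraries the log2 fold change was -1.46 for Snhg15 and -1.80 for Snhg20, and neither was called (adjusted p = 0.107 and 0.0832). Both were called under the other 16 alternatives, with adjusted p down to 1.17e-06 and 6.76e-06.

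Snhg1 is the host of a cluster of box C/D snoRNAs, of which 2 are printed above. It gave 22.6, 19.8 and 14.8 CPM in the controls and 6.14, 11.8 and 7.55 CPM in the knockouts. Control 3 was the lowest control and knockout 2 the highest knockout, and the groups did not overlap. The means of 19.1 ± 3.93 and 8.49 ± 2.93 CPM correspond to a 2.20-fold fall (log2 fold change -1.14, SE 0.239, adjusted p = 0.0146). The call was lost when control 1 (adjusted p = 0.0714), control 2 (0.0560) or knockout 1 (0.0579) was left out, and without both shallow libraries (0.186). The other 13 alternatives kept it, with adjusted p down to 6.95e-07.

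Snhg11, a host gene known mainly from neurons and neuroendocrine cells, had the most negative fitted fold change of the set but was not called. It measured 3.95, 3.55 and 3.87 CPM in the controls and 1.55, 1.17 and 0.0948 CPM in the knockouts. The controls were tightly grouped, while knockout 3, with 10 counts, lay far below the other knockout libraries. The log2 fold change was -2.14 (SE 0.782, adjusted p = 0.158). Without knockout 3 it was -1.50 and called (adjusted p = 0.0296), and it was called under 3 of 17 alternatives in all (adjusted p from 4.69e-05 to 0.357). GENCODE M21 lists Snhg11 as protein coding, unlike the other 9.

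Snhg6, the host of Snord87, showed a smaller difference with no overlap. It gave 6.55, 6.17 and 5.33 CPM in the controls against 3.56, 4.23 and 2.84 CPM in the knockouts. The log2 fold change of -0.76 (SE 0.246) did not pass the test (adjusted p = 0.0841), and DESeq2 alone of 17 alternatives called it (adjusted p = 0.0427, others up to 0.263). In the annotation, 11.1% of its exonic bases are shared with another gene, and Mcmdc2 overlaps it. The called genes share exonic bases with small RNAs, at 20.9% in Snhg1, 9.79% in Snhg15 and 7.69% in Snhg20. Tested genes that were not called share them too, at 19.6% in Snhg12, 17.8% in Gas5, 15.2% in Snhg8 and 8.32% in Snhg5. The share was 1.56% in Snhg11 and 0% in Snhg6. How such shared bases were counted is not known.

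Gas5, named for its accumulation in growth-arrested cells and known also as a decoy for the glucocorticoid receptor, was by far the most abundant member. It measured 72.5, 65.1 and 48.3 CPM in the controls and 57.5, 50.2 and 39.2 CPM in the knockouts. The ranges overlapped, since control 3 lay below knockout 1 and knockout 2. The log2 fold change was -0.34 (SE 0.170, adjusted p = 0.272). Snhg5, the host of Snord50a and Snord50b, overlapped as well, with 5.25, 9.17 and 6.46 CPM in the controls and 5.43, 4.69 and 3.76 CPM in the knockouts (log2 fold change -0.61, SE 0.257, adjusted p = 0.185).

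Snhg8 and Snhg12 had the fold changes nearest to 0. Snhg8, the host of Snora24, gave 18.0, 17.3 and 16.1 CPM against 18.2, 16.9 and 13.4 CPM (log2 fold change -0.09, SE 0.160, adjusted p = 0.799). Snhg12, the host of Snora16a, Snora44, Snora61 and Snord99, gave 9.82, 10.6 and 7.73 CPM against 8.79, 9.67 and 7.71 CPM (log2 fold change -0.10, SE 0.195, adjusted p = 0.822). For both genes the difference was smaller than the spread between libraries. The sign turned positive under 2 of 17 alternative settings for Snhg8 and under 1 for Snhg12.

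Snhg3, the host of Snora73a and Snora73b, had a count of 0 in all 6 libraries and was not tested. At these depths a count of 0 allows a level of up to 0.0135 CPM (control 3) to 0.194 CPM (knockout 1), taking 3 counts as the limit. Its GENCODE M21 model has 986 exonic bases, of which 86.3% are shared with other genes or with its own snoRNAs, leaving 135 bases of its own. The genes that share them are Rcc1 and Gm17300. Rcc1 measured 11.6, 11.4 and 8.07 CPM in the controls and 8.15, 10.1 and 8.30 CPM in the knockouts (log2 fold change -0.22, adjusted p = 0.589), and Gm17300 had 3, 8 and 16 counts in the controls and 0 in each knockout. The rule by which shared bases were counted is not known here, so the 0 is not a measurement of Snhg3 expression.

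**Figure D2:**
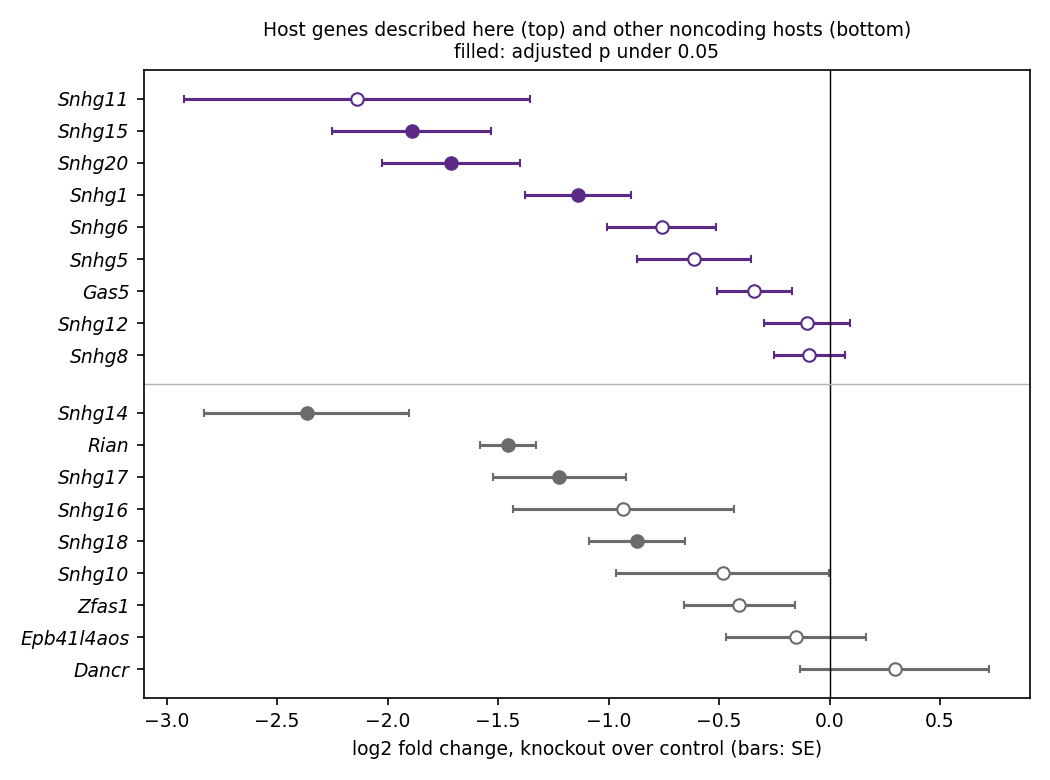
Log2 fold change, knockout over control, with its standard error for the 9 tested host genes described here and for 9 other noncoding host genes. Filled points were called lower: Snhg15, Snhg20 and Snhg1 in the upper block, and Snhg14, Rian, Snhg17 and Snhg18 in the lower block; Dancr alone lies above 0.

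Levels of different genes were compared per kilobase of the median annotated transcript. In controls Gas5 led with 98.5 ± 19.7 CPM per kb, followed by Snhg8 with 32.5 ± 1.80 and Snhg1 with 31.6 ± 6.52. Snhg6 (10.8 ± 1.12), Snhg12 (10.2 ± 1.61), Snhg15 (10.2 ± 2.61), Snhg5 (8.37 ± 2.41) and Snhg20 (8.12 ± 0.641) formed a middle group, and Snhg11 was lowest at 2.85 ± 0.161 CPM per kb. Snhg8 and Snhg1 overlapped, as did each gene of the middle group with the next in this order. In knockouts Gas5 still led with 77.8 ± 14.6 CPM per kb, and Snhg8 (30.6 ± 4.71) now lay above Snhg1 (14.1 ± 4.87) with no overlap. Snhg15 (2.60 ± 1.28) and Snhg5 (5.56 ± 1.01), which overlapped in controls, no longer did. Snhg20 (2.52 ± 0.714) lay beside Snhg15, and Snhg11 remained lowest at 0.707 ± 0.569 CPM per kb.

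The host genes were also compared with Gas5 inside each library, a ratio that does not depend on library scaling. Snhg1 stood at 31.2, 30.4 and 30.7 counts per 100 Gas5 counts in the controls and at 10.7, 23.5 and 19.3 in the knockouts. Snhg15 stood at 10.4, 9.62 and 9.24 against 1.35, 4.6 and 4.01. Snhg20 stood at 7.09, 7.76 and 9.17 against 3.15, 3.41 and 2.61. Among the controls, and relative to the mean, the ratios of Snhg1, Snhg12 and Snhg15 varied less than their CPM, while those of Snhg5, Snhg6, Snhg8, Snhg11 and Snhg20 varied more.

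The ratio lay lower in every knockout library than in every control library for 5 genes, namely Snhg1, Snhg6, Snhg11, Snhg15 and Snhg20, against 2.92% of all genes tested. Snhg6 gave 9.03, 9.48 and 11 per 100 Gas5 counts in the controls and 6.19, 8.43 and 7.25 in the knockouts. Snhg11 gave 5.45, 5.45 and 8.0 against 2.7, 2.34 and 0.242. Ratios of Snhg5, Snhg8 and Snhg12 overlapped, with Snhg8 at 24.8, 26.6 and 33.4 against 31.6, 33.7 and 34.1. For any single ratio an exact two-sided permutation test of 3 against 3 libraries cannot go below p = 0.1, and such a ratio shows unequal change, not which gene changed.

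**Figure D3:**
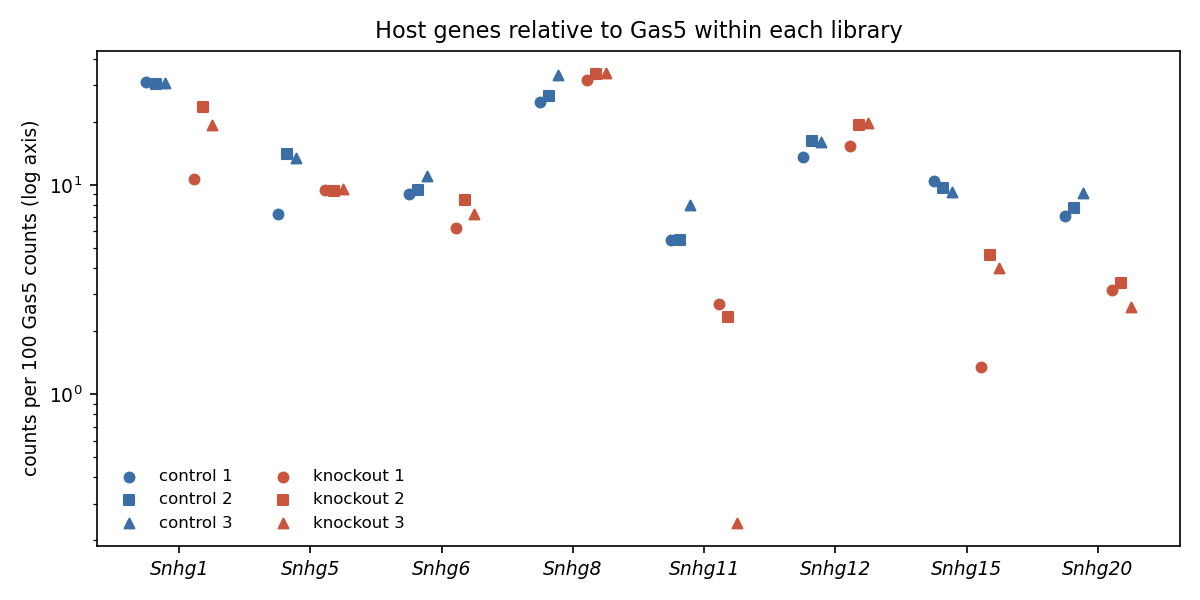
Counts of each host gene per 100 counts of Gas5 (log axis) in the 3 control and 3 knockout libraries. Snhg1, Snhg6, Snhg11, Snhg15 and Snhg20 lie lower in every knockout library than in any control library, while Snhg5, Snhg8 and Snhg12 overlap.

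All members together gave 151, 143 and 112 CPM in the controls and 104, 103 and 77.1 CPM in the knockouts, so their summed level did not overlap between the groups. Of all single genes tested, 14.1% lay wholly lower in the knockouts, while Gas5 by itself overlapped and was not called. Gas5 made up 47.9%, 45.5% and 43.3% of these counts in the controls and 55.4%, 48.9% and 50.8% in the knockouts.

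Tract and call can be set side by side, with the pattern noticed after the values were seen. By the search rule, the called genes Snhg1, Snhg15 and Snhg20, and also Snhg11, had no tract at the listed start. Gas5, Snhg5, Snhg8 and Snhg12, none of them called, had one. Just after its listed start Snhg1 does hold a pyrimidine run. That run begins with T and has too few bases from its first C onwards to count, so the place of Snhg1 here rests on the rule. Snhg3, untested, had one too, and Snhg6 was not analysed in this respect. Over all genes with a listed start, 3.44% of those with a tract and 3.74% of those without were called lower. Among other noncoding host genes the split was different. Rian and Snhg18 have a tract, Snhg14 and Snhg17 have none, and all 4 were called lower. Among tested genes of that list that were not called, Snhg10 and Snhg16 have a tract, and Zfas1 and Dancr have none.

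A second list held 12 other noncoding snoRNA host genes, of which 10 had a row and 9 were tested. In it 4 were called lower and none higher, 8 of 9 fold changes were negative, and the median was -0.87. Of all genes tested, 3.35% were called lower and 50.2% had a negative fold change. Like the set, this list was chosen with earlier results of these data known. Rian, the host of a snoRNA cluster in the imprinted Dlk1-Dio3 region, fell 2.74-fold, with 243 ± 31.0 CPM in controls and 88.6 ± 5.63 in knockouts (log2 fold change -1.46, SE 0.125, adjusted p = 4.5e-05) and kept its call under all 17 alternatives. Snhg14, the host transcript of the imprinted Prader-Willi region, gave 3.44, 2.21 and 1.70 CPM in the controls and 0.517, 0.587 and 0.322 CPM in the knockouts (log2 fold change -2.37, adjusted p = 0.0100). Its call was lost only without both shallow libraries (adjusted p = 0.105, against 3.11e-05 at the lowest).

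Snhg17 fell 2.33-fold, with 6.36 ± 1.53 CPM in controls and 2.68 ± 0.872 in knockouts (adjusted p = 0.0283). Snhg18 fell 1.83-fold, with 12.3 ± 2.91 and 6.64 ± 1.22 CPM (adjusted p = 0.0302). Each of these calls held under 11 of 17 alternatives. Both were lost with limma-voom, without control 1, control 2, knockout 1 or knockout 3, and without both shallow libraries, with adjusted p over all alternatives from 0.00178 to 0.226 and from 0.0026 to 0.212. Dancr was the only gene of the list with a positive value (log2 fold change 0.29, SE 0.429, adjusted p = 0.754).

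Genes that host snoRNAs in the introns of protein-coding messages were described for comparison. None of 23 such genes, most of which encode ribosomal proteins and translation factors, was called, and 6 had an unadjusted p under 0.05, a share near the 21.6% of all genes tested. Their median log2 fold change was -0.17, with 20 of 23 values negative, against 50.2% of all genes tested. The 23 genes are not independent replicates. The smallest p values belonged to the translation elongation factor Eef2 (log2 fold change 0.45, adjusted p = 0.0827), called under 5 of 17 alternatives, DESeq2 and limma-voom among them, and to Eef1b2 (-0.44, adjusted p = 0.0964), called under 3.

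Genes for the proteins that bind and mature snoRNAs showed small differences, and neither DESeq2 nor limma-voom called any of them. Against the 21.6% of all genes tested at an unadjusted p under 0.05, the lists of this and the next paragraph held at most 1 such gene each. Of 4 box C/D core proteins none was called (1 at an unadjusted p under 0.05). In that list the median was -0.24, Nop58 had -0.41 (adjusted p = 0.124) and the methyltransferase gene Fbl had -0.23 (adjusted p = 0.330). Nop58 was called under 2 of 17 alternatives. Of 4 box H/ACA core proteins none was called either (0 at an unadjusted p under 0.05), with a median of -0.24, Gar1 at -0.39 (adjusted p = 0.359) and Nop10 at -0.20 (adjusted p = 0.376). Among 10 assembly factors none was called (0 at an unadjusted p under 0.05), with a median of -0.08, Pih1d1 at -0.34 (adjusted p = 0.291) and Shq1 at -0.38 (adjusted p = 0.375).

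Factors that act on host gene RNA or on the nucleolus were not called by edgeR, DESeq2 or limma-voom. Among 10 nonsense-mediated decay factors, which degrade several host gene RNAs, the median log2 fold change was 0.07 and 1 had an unadjusted p under 0.05. Upf3a had -0.38 (adjusted p = 0.184) and the endonuclease gene Smg6 had 0.31 (adjusted p = 0.288). Of 8 genes of RNA polymerase I and nucleolar proteins, 1 had an unadjusted p under 0.05, the median was -0.04, Polr1a had 0.45 (adjusted p = 0.114) and Polr1c had -0.28 (adjusted p = 0.298). For 7 genes that control growth and the translation of tract-bearing messages the median was 0.12, again with 1 at an unadjusted p under 0.05. Larp1, which binds the tract, had 0.31 (adjusted p = 0.116), and the translation repressor Eif4ebp1 had -0.29 (adjusted p = 0.335).

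**Figure D4:**
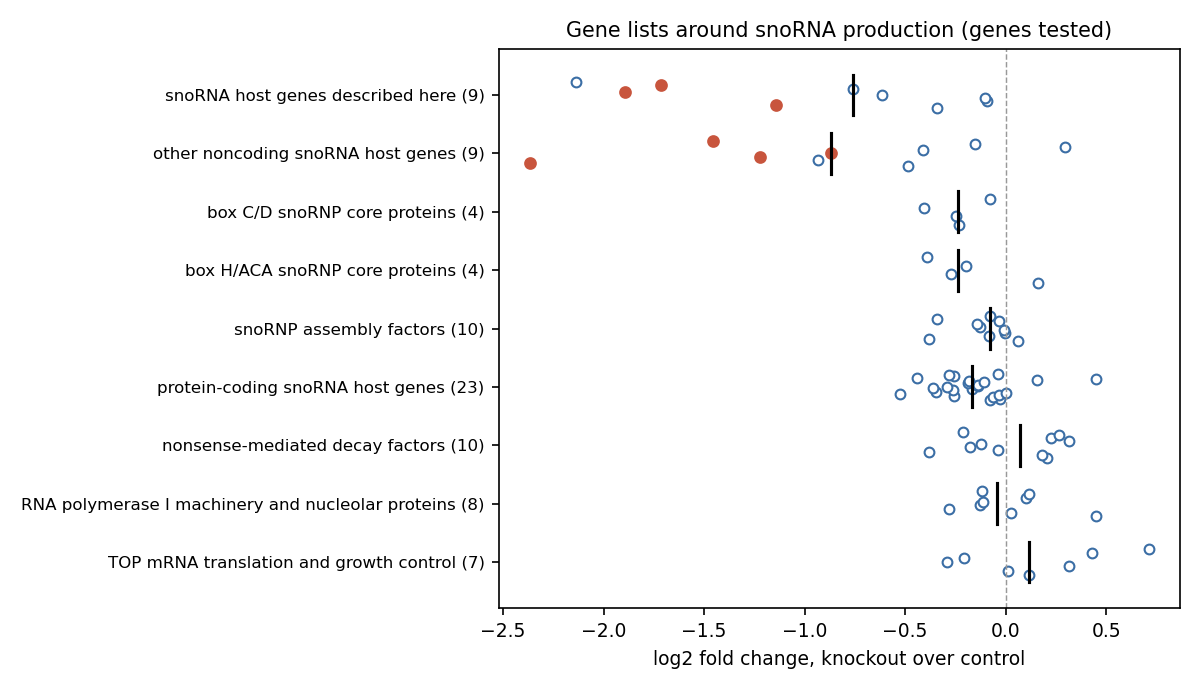
Log2 fold change of every tested gene in the host gene set and in 8 further lists, with vertical bars at the medians, filled points for genes called lower and the number tested in parentheses. Filled points occur in the lists of noncoding host genes, whose medians are -0.76 and -0.87, while the other medians lie between -0.24 and 0.12.

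Host genes are short and mostly noncoding, so each of those classes is given beside them. Of 1809 long noncoding RNA genes tested, 2.6% were called lower, and their median log2 fold change was -0.17. Of 6779 genes with a median transcript under 1 kb, 5.02% were called lower and the median was -0.09. For the 714 genes in both classes the median was -0.23. Across 18113 genes, which are not independent replicates, log2 fold change and transcript length had a Spearman's rho of 0.182. With offsets for length and GC content in the fit, the median of the host genes was -0.61, and Snhg1 (adjusted p = 0.0120), Snhg15 (0.00508) and Snhg20 (0.00566) were still called.

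The rows of the snoRNAs themselves hold little. Of the 31 small RNAs inside the 10 host genes, 28 had a row and all 28 had a count of 0 in every library, so mature snoRNAs of these hosts were not measured here. Over all 1065 snoRNA rows, 113 had any count and 7 were tested. Their summed level was 5.19, 5.69 and 4.37 CPM in the controls and 1.81, 2.25 and 1.56 CPM in the knockouts (5.08 ± 0.664 against 1.87 ± 0.346, SD, n = 3 each; the smallest p of an exact permutation test, 0.1). Rows with the most counts lay mainly inside protein-coding hosts, for example Snora31 in Tpt1, with 1, 33 and 67 counts in the controls and 0, 18 and 8 in the knockouts, chosen after the values were seen.

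Some other measures also differed between the groups, not all in the direction of the host genes. Summed beta-cell markers did not overlap between groups, as given above, and 3 of those 7 genes were called lower. Summed delta, PP and epsilon markers ran from 8552 to 13974 CPM in controls and from 6355 to 8547 CPM in knockouts, with 2 of 5 genes lower. Summed duct markers ran from 1728 to 2249 against 968 to 1455 CPM. Even so, 4 of 6 duct fold changes were positive and 1 duct gene was called higher. Endothelial sums ran from 196 to 220 against 224 to 283 CPM, with 1 of 6 genes called higher. Alpha, acinar, stromal, immune and Schwann sums overlapped, although all 5 alpha markers had negative fold changes. No marker of any list was at 0 in all libraries. The nuclear noncoding RNA Malat1 measured 168, 102 and 78.5 CPM in the controls and 34.0, 26.7 and 17.4 CPM in the knockouts (log2 fold change -2.17, adjusted p = 0.0297). The part of these measures in the host gene values was not tested. The share of mitochondrial counts overlapped, at 1.46% to 2.22% in controls and 1.51% to 1.90% in knockouts.

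Genes with the profile most like that of Snhg20 were sought over the 6 libraries by Euclidean distance between centred log2 CPM values, among 10733 genes with a mean of at least 5 CPM. Among the 5 nearest were Fkbp11 (distance 0.493), Gm21887 (0.593), Mir670hg (0.644) and Zfp950 (0.662). Fkbp11 encodes a prolyl isomerase of the secretory pathway. Log2 fold changes of these 4 genes were -1.72, -1.98, -1.58 and -1.28 in that order. They were chosen for their likeness to Snhg20 and for a level of at least 5 CPM, which Snhg20 does not reach, so these values are a description and no support for it.

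**Figure D5:**
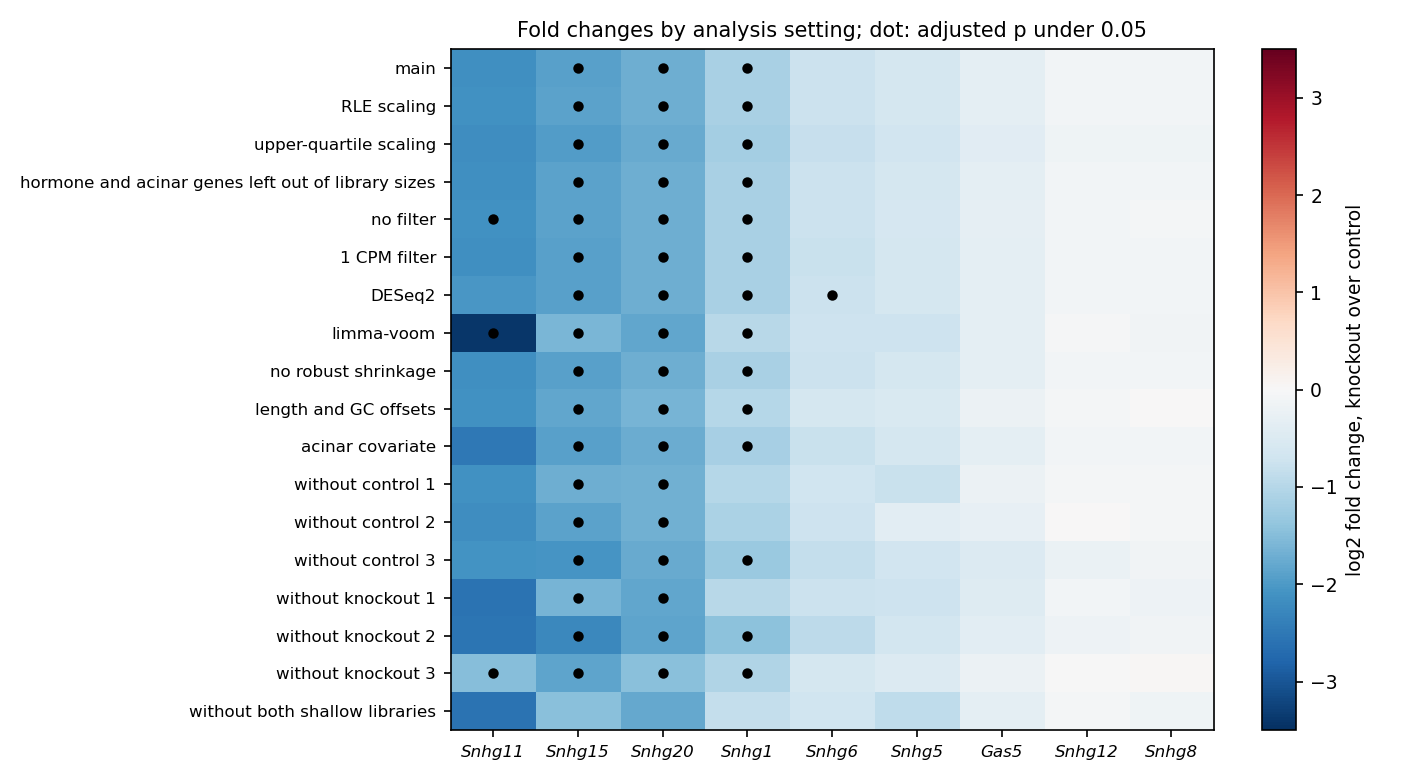
Log2 fold change (colour) of the 9 tested host genes under the main setting and 17 alternatives, with a dot where the adjusted p was under 0.05. Snhg15 and Snhg20 carry a dot in every line except the one without both shallow libraries, Snhg1 has 13 dots among the alternatives, and Gas5, Snhg5, Snhg8 and Snhg12 have none.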

How the data were processed

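The authors deposited raw counts per Ensembl gene ID for 6 libraries. The tools were STAR 2.7.3a and featureCounts on GRCm39 (mm39), after FastQC 0.11.9 and Trim Galore 0.6.7, per the submitters' processing notes. Neither the annotation release nor the strand setting is given in the sources used here, nor how read pairs, overlapping genes and multi-mapping reads were treated. Even numbers made up 62.3% to 73.2% of the nonzero counts, so a count may be less than 1 fragment. A count of 3, taken as the floor, was 0.0135 to 0.194 CPM, covering counting error only. Libraries of a group differed by more than sampling noise (mean chi-square per gene at least 39.8 for each pair) and were kept apart.

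Symbols, lengths and overlaps came from GENCODE M21 by gene ID (52073 of 56980 IDs), and Snhg16 was matched through a RefSeq synonym. edgeR 4.0.16 in R 4.3.3 tested knockout against control by the robust quasi-likelihood test after filterByExpr and TMM scaling. Alternatives used DESeq2 1.42.0, limma 3.58.1 (voom), offsets from mgcv 1.9.3, other scalings and filters, an acinar covariate, and libraries left out. On simulated counts the test called 12.7% of genes changed 1.5-fold, 49.2% changed 2-fold and 76.6% changed 4-fold, and 0.0392% of unchanged genes. Members and lists were chosen with earlier results of these data known. Named were all members, and in each list the genes called or else the 2 with the smallest p. The 5 genes most like the member with the smallest p were taken too, of which 1 is not reported here. Without a stated strand setting, overlapping genes cannot be told apart.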

Additional observations from a re-analysis of the deposited data

How the results depend on the processing

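No tested host gene changed sign under the 17 alternatives except Snhg8 and Snhg12, neither of which was called in any. Of the host genes, 3 were called lower in the main analysis, 2 to 4 when 1 library was left out, and 0 without both shallow libraries; none was called higher under any alternative. Over all genes, 691 were called higher and 621 lower. DESeq2 called 1072 and 969, the acinar covariate 1055 and 931, and the fit with no filter 1222 and 931. Without both shallow libraries 76 higher and 48 lower genes were called. Leaving out 1 library gave 295 to 719 higher and 224 to 590 lower genes. The lower counts came without control 1 (312 higher, 349 lower), control 2 (295, 224) and knockout 1 (340, 270), and 400 lower genes were called without knockout 2. With upper-quartile scaling the split was 613 higher to 829 lower. The cause of these shifts was not tested, and the fits with libraries left out also hold fewer libraries. In the shallow libraries, with 17587055 and 14907641 counts, Snhg15 had 134 counts in control 1 and 12 in knockout 1. Its log2 fold change was -1.89 with all libraries and -1.46 without both shallow ones. No paired analysis was possible because the columns carry no label that pairs libraries across the groups.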
